A study of Mus musculus with 6 samples.

Results

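The 10 genes described here are genes used to follow the mesenchyme of the dental pulp and the dental follicle, with the ligand gene Pthlh that signals to it: Tnc, Postn, Vim, Twist1, Pdgfra, Pdgfrb, Thy1, Crym, Pthlh and Pth1r. They were matched by gene symbol, and each had 1 of the 20161 gene rows of the deposited normalized table. The libraries came from first molars of C57BL/6 mice at postnatal day 7. One group was wild type (WT, 3 libraries) and the other carried Gpr115-/-, a loss of the adhesion G protein-coupled receptor Gpr115 (Gpr115-KO, 3 libraries from littermates). No other allele or agent is given for either group. The deleted part of the gene and the number of animals behind each library are not stated in the sources used here, and p-values therefore reflect only how far these libraries scatter, which may be partly technical.

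A tooth germ pairs an enamel-forming epithelium with mesenchyme. The mesenchyme inside the crown becomes pulp and odontoblasts, and the mesenchyme around it, the follicle, gives rise to the periodontal ligament, cementum and adjoining bone. Tooth eruption depends on parathyroid hormone-related protein (PTHrP, encoded by Pthlh), a secreted peptide that acts on the receptor Pth1r in mesenchymal cells and influences the formation of bone-resorbing osteoclasts. Platelet-derived growth factor (PDGF) receptors, encoded by Pdgfra and Pdgfrb, are tyrosine kinases of mesenchymal and mural cells.

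Library totals ran from 8317302 to 11122821 counts, and 1 count was worth 0.0904 to 0.114 CPM, counts scaled to a library of 1000000 by trimmed means of M values (TMM). The targeted gene, listed as Adgrf4, had 66.9, 62.3 and 67.3 CPM across WT and 39.1, 20.6 and 27.4 CPM across Gpr115-KO libraries (adjusted p = 0.0889 by edgeR). Each Gpr115-KO library lay under every WT library, and reads were still counted in all of them. Genes of the enamel epithelium gave a large part of the counts: the 4 secretory ameloblast markers summed to 106581 to 139553 CPM in WT and 91182 to 201135 CPM in Gpr115-KO. Of 57 tested markers of 13 cell types other than pulp and follicle mesenchyme, edgeR called 0 (11 at an unadjusted p under 0.05, beside 12.3% of all genes), DESeq2 3 (Hbb-bs, Hbb-bt and Mpo, beside 1.58%) and limma-voom 0. The 5 tested erythroid genes were all among these 11, each with a fitted value above 0 (median log2 fold change 1.22). Gpr115-KO replicate 2 was the library farthest from each of the others, with chi-square values of 38.9 to 77.5 per degree of freedom, beside 14.4 to 50.3 for the remaining pairs, and fits of the members are given with and without it.

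Of the 10 genes, 8 were measured well enough to test. Thy1 and Crym were at 0 to 13 counts in every library and failed the count filter (at least about 10 counts in 3 libraries), so they do not serve as markers here. Thy1 (chromosome 9, 44043384 to 44048579, plus strand, GRCm38), a glycoprotein of the cell surface used to mark stromal progenitors and T cells, had 8, 7 and 1 counts across WT and 5, 4 and 7 across Gpr115-KO libraries. Its levels of 0.101 to 0.793 CPM overlapped between genotypes, and without a count filter its log2 fold change was 0.02 (SE 0.85, adjusted p = 1.0 by edgeR). Of 5 T cell markers only Lck passed the filter, at 1.93 to 3.98 CPM. Cd3e (0 to 0.213 CPM) and Cd8a (0 to 0.181 CPM) were near 0, while Cd3g (0.304 to 1.73 CPM) and Cd4 (0.507 to 1.02 CPM) were at levels like that of Thy1, and the part of T cells in the Thy1 counts was not tested. Crym (chromosome 7, 120186380 to 120202111, minus strand), which encodes the thyroid hormone-binding mu-crystallin and is used as a marker of apical pulp, had 5, 5 and 4 counts across WT and 4, 13 and 0 across Gpr115-KO libraries. The 13 counts of replicate 2 equal 1.39 CPM (95% exact Poisson interval 0.738 to 2.37), and the count of 0 in replicate 3 allows up to 0.336 CPM by the same interval, or 0.274 CPM at 3 counts, all for counting error only. Without a count filter its log2 fold change was 0.34 (SE 0.87, adjusted p = 0.907 by edgeR).

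Levels of different genes were compared as CPM per kilobase of exonic length. In WT the order was Tnc (67.8 ± 15.2, SD, n = 3), Vim (55.0 ± 5.39), Pthlh (13.6 ± 2.45), Pdgfra (11.9 ± 0.335), Twist1 (6.48 ± 0.600), Postn (3.44 ± 0.684), Pdgfrb (3.04 ± 0.524), Pth1r (2.12 ± 0.191), Thy1 (0.180 ± 0.127) and Crym (0.140 ± 0.0245), all in CPM per kilobase. Neighbours in this order overlapped across WT libraries for Tnc and Vim, Pthlh and Pdgfra, Postn and Pdgfrb, and Thy1 and Crym. The other neighbours did not overlap in WT, and over all 6 libraries only the steps from Vim to Pthlh and from Pth1r to Thy1 stayed free of overlap. Exonic length joins all annotated exons, which lowers the value of genes with many alternative exons.

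No difference between genotypes in the 8 tested members passed the test against the replicate spread. edgeR's quasi-likelihood test called 0 of 8 at an adjusted p under 0.05, where it called 0.15% of all 16011 genes tested (0.0375% higher and 0.112% lower in Gpr115-KO). At an unadjusted p under 0.05 it had 0 of 8, beside 12.3% of all genes. The DESeq2 Wald test called 0 of 8 and 1.58% of all genes, and limma-voom 0 of 8. With calls this rare among all genes, 0 of 8 does not set the members apart. The libraries of both genotypes overlapped in the 8 tested members, and also in Thy1 and Crym, which were not tested. Of all genes tested, 17.5% had libraries that did not overlap (8.55% higher and 8.99% lower in Gpr115-KO). Most genes thus overlapped, and overlap in 8 genes does not set the members apart either. Fitted log2 fold changes were above 0 for 3 of 8 members (Postn, Pth1r and Vim) and for 51.3% of all genes, and below 0 for Tnc, Pdgfra, Pdgfrb, Twist1 and Pthlh (median −0.21, beside 0.01 over all genes tested). Without Gpr115-KO replicate 2, Postn was at 0.26, Vim at 0.26, Pth1r at 0.37, Twist1 at −0.18 and Pthlh at −0.22 on this scale, and edgeR again called 0 of 8. In these bulk libraries, fewer cells of a type and less RNA per cell cannot be told apart.

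**Figure D1:**
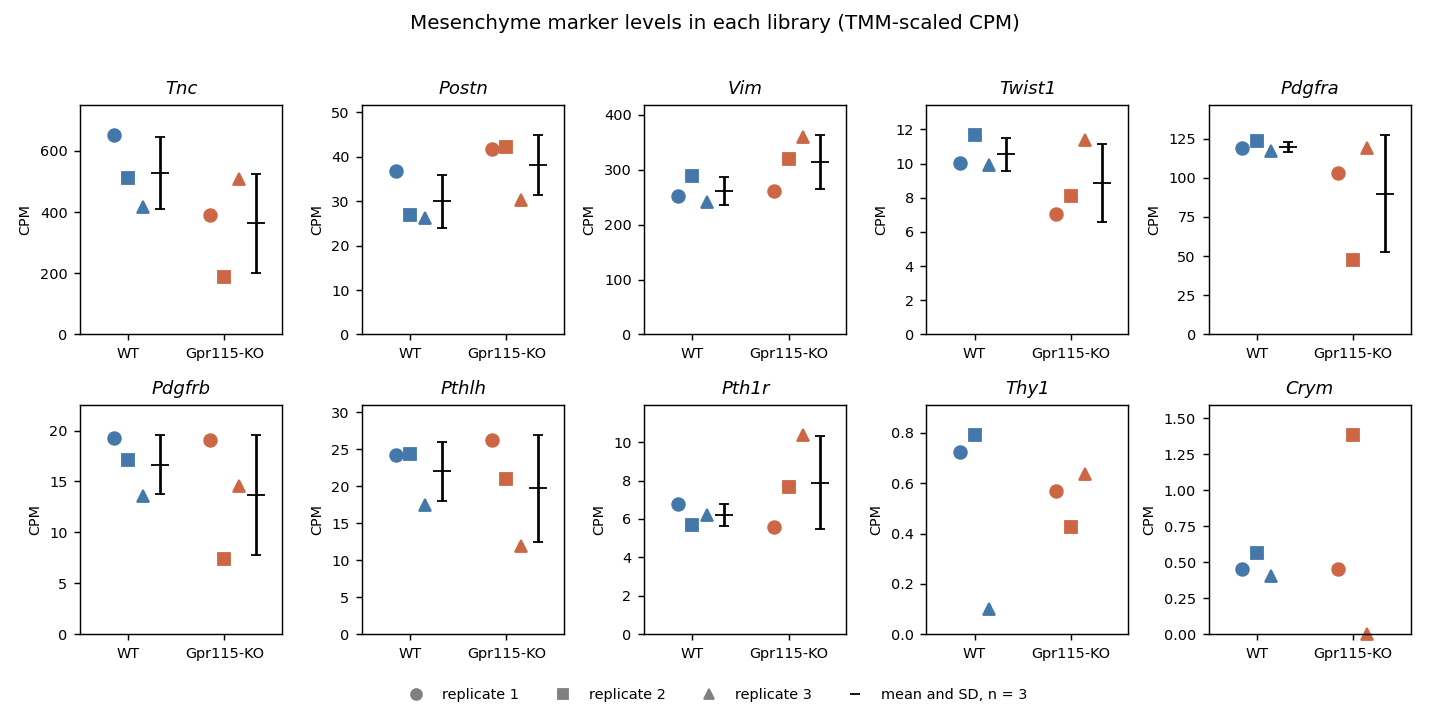
Levels of the 10 members in CPM (vertical axes, each from 0) in the 3 WT (blue) and 3 Gpr115-KO (orange) libraries, with symbols for replicate numbers and, for the 8 tested members, the mean and SD (n = 3). The genotypes overlap in every panel, and Tnc, Pdgfra and Pdgfrb are lowest in Gpr115-KO replicate 2.

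Tnc (chromosome 4, 63959785 to 64047015, minus strand, GRCm38, as for all positions here) encodes tenascin-C, a large matrix glycoprotein of developing mesenchyme. Its level was 652, 510 and 418 CPM across WT and 392, 189 and 507 CPM across Gpr115-KO libraries. Gpr115-KO replicate 2 was lowest, replicate 1 lay just under the WT range and replicate 3 within it. The group values were 527 ± 118 CPM for WT and 363 ± 161 CPM for Gpr115-KO (SD, n = 3), giving a log2 fold change of −0.54 (SE 0.33, adjusted p = 0.542 by edgeR). Without Gpr115-KO replicate 2 it was −0.23 (adjusted p = 0.812 by edgeR), and without WT replicate 1 it was −0.35 (adjusted p = 0.922). Without Gpr115-KO replicate 3 it was −0.86 (adjusted p = 0.306 by edgeR). Its gene shares 176 exonic bases with the transcript 8030451A03Rik on the opposite strand, 2.26% of its exonic length. That transcript had 1348 counts in all libraries together, and the libraries do not mark strand.

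Postn (chromosome 3, 54361109 to 54391037, plus strand) encodes periostin, a matrix protein of the follicle and periodontal ligament that binds tenascin-C and integrins. It stood at 36.8, 26.9 and 26.1 CPM across WT and 41.8, 42.2 and 30.3 CPM across Gpr115-KO libraries. Replicates 1 and 2 of Gpr115-KO were above all WT libraries, and replicate 3 was below WT replicate 1. From 29.9 ± 5.96 CPM for WT to 38.1 ± 6.78 CPM for Gpr115-KO (SD, n = 3), the log2 fold change was 0.34 (SE 0.20, adjusted p = 0.502 by edgeR). Without WT replicate 1 it was 0.52 (adjusted p = 0.793 by edgeR).

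The matrix genes lay on opposite sides of WT in Gpr115-KO replicate 2. The ratio of Tnc to Postn counts was 17.7, 19.0 and 16.0 across WT and 9.38, 4.48 and 16.8 across Gpr115-KO libraries. Replicates 1 and 2 of Gpr115-KO lay under the WT range and replicate 3 within it. This ratio was formed after the values were seen and has no test.

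Tnc, Pdgfra and Pdgfrb were low together in Gpr115-KO replicate 2 and Postn was not. Pdgfrb was left out of the promoter search. For Tnc, Pdgfra and Postn, the 250 bases before an annotated start of each are shown side by side. They are from RefSeq on GRCm38.p6, written 5′ to 3′ along the gene's strand, at chr4:64047016-64047265 (minus) for Tnc, chr5:75152001-75152250 (plus) for Pdgfra and chr3:54360857-54361106 (plus) for Postn. Capitals mark TATAAA, the core letters of a TATA box, and CANNTG, the E-box letters that basic helix-loop-helix factors such as Twist1 can bind, searched on both strands.
Tnc: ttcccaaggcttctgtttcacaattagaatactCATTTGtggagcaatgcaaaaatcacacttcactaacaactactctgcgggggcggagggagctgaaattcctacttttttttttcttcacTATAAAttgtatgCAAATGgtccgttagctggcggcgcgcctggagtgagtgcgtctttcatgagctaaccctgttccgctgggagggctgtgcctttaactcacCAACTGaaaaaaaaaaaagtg
Pdgfra: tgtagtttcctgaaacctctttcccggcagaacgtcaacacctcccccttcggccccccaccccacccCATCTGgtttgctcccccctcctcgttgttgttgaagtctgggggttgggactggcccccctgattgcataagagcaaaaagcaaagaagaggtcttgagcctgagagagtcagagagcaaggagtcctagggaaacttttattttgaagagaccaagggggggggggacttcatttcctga
Postn: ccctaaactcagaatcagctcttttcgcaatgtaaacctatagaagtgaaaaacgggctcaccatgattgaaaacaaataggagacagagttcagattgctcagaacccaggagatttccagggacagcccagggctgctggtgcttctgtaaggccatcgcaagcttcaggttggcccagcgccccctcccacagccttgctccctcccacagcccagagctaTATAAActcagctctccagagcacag
The Tnc stretch held 3 CANNTG matches and 1 TATAAA 126 bases before the start, with no overlap between them. The Pdgfra stretch held 1 CANNTG match, 182 bases before the start, and the Postn stretch held a TATAAA 26 bases before the start and no CANNTG. Tnc and Postn each have another annotated start. Its window held 2 CANNTG matches and 1 TATAAA for Tnc, and no match for Postn. Of 32851 RefSeq windows of this length, 66.2% held CANNTG and 12.4% held TATAAA. Of the 11 windows of 7 members, 5 held CANNTG and 5 held TATAAA. The windows of Tnc overlap, and the same TATAAA was counted in each, so the windows are not independent. By gene, TATAAA was found for Postn, Tnc, Twist1 and Vim, and CANNTG for Pdgfra, Pth1r, Pthlh and Tnc. Pdgfrb, Thy1 and Crym were not searched. Matches of letters describe the sequence and say nothing about binding.

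The matrix partners of Tnc and Postn were described with a list of 21 genes, of which 19 were tested. edgeR called 0 (1 at an unadjusted p under 0.05), DESeq2 0 and limma-voom 0. Fitted values were above 0 for 13 and the median log2 fold change was 0.08. Bmp1, a protease that processes matrix precursors, stood at 35.4 ± 7.28 CPM for WT and 47.2 ± 3.44 CPM for Gpr115-KO (log2 fold change 0.42, SE 0.18, adjusted p = 0.371 by edgeR). Itga9, an integrin subunit that can bind tenascin-C, was scarce, at 7 to 21 counts per library. Its log2 fold change was 0.78 (SE 0.47, adjusted p = 0.531 by edgeR). Among the integrin genes of periostin receptors, log2 fold changes were 0.07 for Itgav (SE 0.21), 0.40 for Itgb3 (SE 0.44) and 0.33 for Itgb5 (SE 0.29). Itgb5 stood at 14.6 to 17.6 CPM in the WT libraries and at 19.8, 29.1 and 11.6 CPM across Gpr115-KO libraries. Replicates 1 and 2 of Gpr115-KO were above its WT range and replicate 3 was below it. Tnn, encoding tenascin-N, had 3.16, 3.40 and 0.811 CPM across WT and 4.89, 0.746 and 2.19 CPM across Gpr115-KO libraries.

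Vim (chromosome 2, 13573927 to 13582826, plus strand) encodes vimentin, the intermediate filament protein of mesenchymal cells. Its level was 252, 289 and 241 CPM across WT and 262, 319 and 360.3 CPM across Gpr115-KO libraries. Gpr115-KO replicates 2 and 3 were above every WT library and replicate 1 was within the WT range. Means were 261 ± 25.6 and 314 ± 49.5 CPM (SD, n = 3), giving a log2 fold change of 0.27 (SE 0.18, adjusted p = 0.572 by edgeR). It was 0.16 without Gpr115-KO replicate 3 (adjusted p = 0.741 by edgeR).

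Of 8 listed intermediate filament and linker genes, 6 were tested. edgeR called 0 (1 at an unadjusted p under 0.05), limma-voom 0 and DESeq2 1, the linker Plec. Fitted values were above 0 for 2 and the median was −0.10. Plec, encoding plectin, which ties filaments to junctions, stood at 792 ± 85.0 CPM for WT and 507 ± 23.4 CPM for Gpr115-KO (log2 fold change −0.64, SE 0.17, adjusted p = 0.223 by edgeR). Synm, encoding the filament protein synemin, had −0.30 (SE 0.19, adjusted p = 0.561 by edgeR). These were the 2 of 6 genes whose libraries did not overlap, beside 17.5% of all genes. Plectin is made in epithelium as well as in mesenchyme.

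Twist1 (chromosome 12, 33957671 to 33959829, plus strand) encodes a basic helix-loop-helix transcription factor of cranial mesenchyme that works in pairs with E proteins. It had 10.04, 11.7 and 9.93 CPM across WT and 7.04, 8.10 and 11.4 CPM across Gpr115-KO libraries. Replicates 1 and 2 of Gpr115-KO were below the WT range and replicate 3 within it. The log2 fold change was −0.25 (SE 0.24, adjusted p = 0.716 by edgeR), from 10.5 ± 0.977 to 8.85 ± 2.27 CPM (SD, n = 3). Leaving out Gpr115-KO replicate 1 gave −0.11 (adjusted p = 0.881 by edgeR), and leaving out replicate 3 gave −0.47 (adjusted p = 0.405).

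Its relatives and partners were read from a list of 19 mesenchymal regulators, 17 of them tested. edgeR called 0 (3 at an unadjusted p under 0.05), DESeq2 0 and limma-voom 0, with 9 above 0 and a median of 0.01. The paralog Twist2 had 11.03, 7.03 and 4.36 CPM across WT and 4.66, 3.20 and 7.84 CPM across Gpr115-KO libraries. Among the E proteins, Tcf4 and Tcf12 had log2 fold changes of −0.03 (SE 0.15) and −0.07 (SE 0.14). Tcf3 stood at 12.4 ± 2.42 CPM for WT and 18.5 ± 2.39 CPM for Gpr115-KO (log2 fold change 0.59, SE 0.21, adjusted p = 0.304 by edgeR). Id1, an inhibitor that sequesters E proteins, had 0.74 (SE 0.26, adjusted p = 0.304 by edgeR). Libraries of the genotypes did not overlap for Tcf3 or Id1, as for 17.5% of all genes tested.

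Pdgfra (chromosome 5, 75152292 to 75198215, plus strand) encodes the PDGF receptor alpha, a marker of follicle and pulp fibroblasts. Its level was 119, 123 and 117 CPM across WT and 103, 47.7 and 119 CPM across Gpr115-KO libraries. The WT libraries lay within 1.06-fold of each other, a range as narrow as that of 3.59% of the 11180 genes of at least 5 CPM. The Gpr115-KO libraries spanned 2.49-fold, as wide as 5.37% of those genes. Replicate 2 was farthest from WT, at 39.9% of the WT mean, replicate 1 lay under the WT range and replicate 3 within it. Means were 119.7 ± 3.36 and 89.9 ± 37.3 CPM (SD, n = 3), giving a log2 fold change of −0.41 (SE 0.28, adjusted p = 0.590 by edgeR). It was −0.11 without Gpr115-KO replicate 2 (adjusted p = 0.879 by edgeR), −0.67 without replicate 3 (adjusted p = 0.350), and −0.27 with each library's trend on gene length removed (adjusted p = 0.732). Pdgfra shares 456 exonic bases with Gm42802 on the opposite strand, which had 18 counts in all libraries together.

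Pdgfrb (chromosome 18, 61045150 to 61085061, plus strand) encodes the PDGF receptor beta, which marks pericytes and perivascular mesenchyme. It stood at 19.3, 17.1 and 13.6 CPM across WT and 19.1, 7.35 and 14.6 CPM across Gpr115-KO libraries. Again replicate 2 of Gpr115-KO was lowest, and the other 2 Gpr115-KO libraries were within the WT range. Its log2 fold change was −0.29 (SE 0.31, adjusted p = 0.751 by edgeR), from 16.7 ± 2.87 to 13.7 ± 5.92 CPM (SD, n = 3). Without Gpr115-KO replicate 2 the sign turned, at 0.013 (adjusted p = 0.996 by edgeR), and it was −0.60 without replicate 1 (adjusted p = 0.406) and −0.16 without WT replicate 1 (adjusted p = 0.967).

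Tnc, Pdgfra and Pdgfrb were lower in near proportion in Gpr115-KO replicate 2. The ratio of Pdgfra to Pdgfrb counts was 6.17, 7.21 and 8.60 across WT and 5.40, 6.49 and 8.14 across Gpr115-KO libraries, so replicate 2 lay within the WT range. The ratio of Tnc to Pdgfra counts was 5.49, 4.13 and 3.58 across WT and 3.80, 3.96 and 4.27 across Gpr115-KO libraries, and all 3 Gpr115-KO values were within the WT range. Vim was not low there. The ratio of Vim to Pdgfra counts was 2.12, 2.35 and 2.06 across WT and 2.54, 6.69 and 3.03 across Gpr115-KO libraries. All 3 Gpr115-KO values were above the WT range, that of replicate 2 the farthest. These ratios were formed after the values were seen and carry no test.

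**Figure D2:**
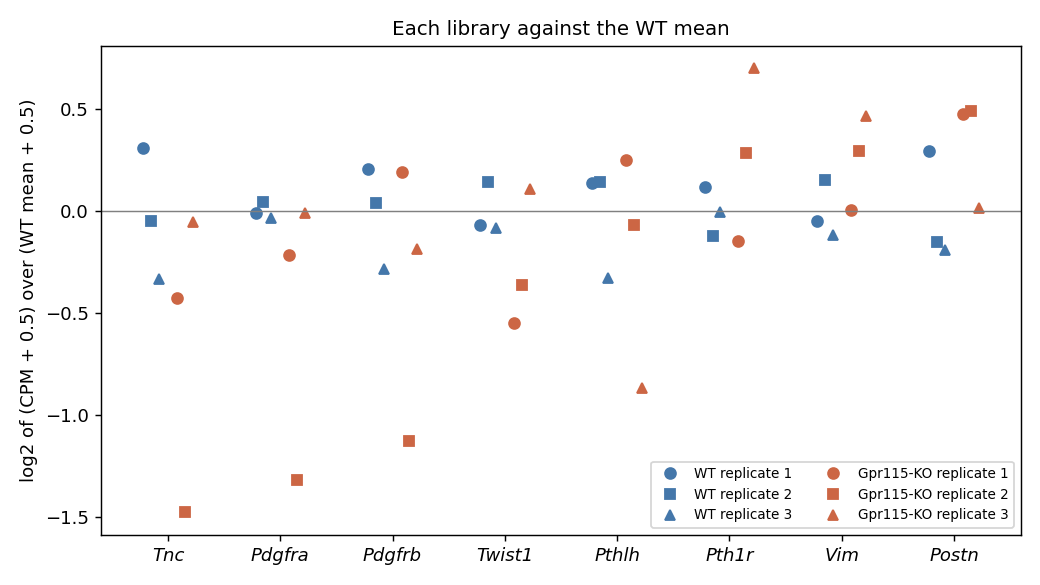
Each library's level of the 8 tested members as log2 of its CPM plus 0.5 over the WT mean plus 0.5 (vertical axis), for WT (blue) and Gpr115-KO (orange), with symbols for replicate numbers. Gpr115-KO replicate 2 is at −1.48 for Tnc, −1.32 for Pdgfra and −1.13 for Pdgfrb, while Postn and Vim are above 0 there, and replicate 3 has the lowest Pthlh and the highest Pth1r.

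Set against all genes in that library, 2.70% were as far below the WT mean as Tnc, 3.85% as Pdgfra and 5.81% as Pdgfrb, on log2 of CPM plus 0.5. Long transcripts were lower there, with a median of −0.17 for 5874 genes of at least 5000 exonic bases and 0.08 for the shorter ones. Among the long genes the shares as low as the 3 members were 2.55%, 3.85% and 6.52%, and Postn, also long, stood at 0.49. Cell type markers moved too, in the other Gpr115-KO libraries as well as in replicate 2. The 7 skeletal muscle markers, 6 of them tested, summed to 197 CPM there, against 30.4 to 48.6 CPM in WT and 19.4 and 53.2 CPM in the other Gpr115-KO libraries. The 4 secretory ameloblast markers, all tested, summed to 201135 CPM in replicate 2, above the WT range given above. In Gpr115-KO replicates 1 and 3 they summed to 117681 and 91182 CPM. The 5 maturation ameloblast markers summed to 8558, 1911 and 4950 CPM across Gpr115-KO libraries, against 6158 to 6187 CPM in WT. Odam carried that sum, with 1468 CPM in replicate 2 and 5658 to 5709 CPM in WT. Klk4, Slc24a4 and Wdr72 were also under their WT ranges in replicate 2, and Amtn (368 CPM) was within its range. In replicate 3 all 5 were under their WT ranges, with Odam at 4569 CPM and Amtn at 311 CPM. Klk4, Slc24a4 and Wdr72 were lower in replicate 3 than in replicate 2. In replicate 1 all 5 were above their WT ranges. The 5 odontoblast markers, all tested, summed to 8156, 3593 and 10062 CPM across Gpr115-KO libraries and to 4367 to 8734 CPM in WT, mostly from Dspp. Dspp (2904 CPM), Dmp1 and Sp7 were under their WT ranges in replicate 2, Phex (419 CPM) was within its range, and Nes (163 CPM) was above. The 5 endothelial markers, all tested, summed to 48.2, 35.7 and 56.7 CPM across Gpr115-KO libraries, against 46.0 to 56.9 CPM in WT. Kdr, Tek and Emcn were under their WT ranges in replicate 2, and Pecam1 and Cdh5 were within theirs. The 6 erythroid markers, 5 of them tested, summed to 302, 390 and 157 CPM across Gpr115-KO libraries, against 138 to 158 CPM in WT. None of these marker lists had a member at 0 in all libraries, and their part in the result was not tested.

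The PDGF axis comprised 16 listed genes with the receptors, all tested. edgeR called 0 (2 at an unadjusted p under 0.05), DESeq2 0 and limma-voom 0, with 10 above 0 and a median of 0.06. The ligand genes overlapped between genotypes. Pdgfa, encoding a ligand of the alpha receptor, stood at 43.8 ± 3.42 CPM for WT and 46.1 ± 4.40 CPM for Gpr115-KO (SD, n = 3; log2 fold change 0.07, SE 0.15, adjusted p = 0.876 by edgeR). Pdgfb, a ligand of both receptors, had 2.84 ± 0.780 and 4.24 ± 0.691 CPM (0.58, SE 0.33, adjusted p = 0.499 by edgeR). Pdgfc, which acts on the alpha receptor, had 0.31 (SE 0.25, adjusted p = 0.643 by edgeR). Pdgfd, which acts on the beta receptor, had 62.0, 74.3 and 53.4 CPM across WT and 47.4, 38.8 and 77.5 CPM across Gpr115-KO libraries, lowest in replicate 2 like the receptors.

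Below the receptors, Plcg1, encoding a phospholipase that docks on them, had 24.3 ± 6.48 CPM for WT and 39.3 ± 3.88 CPM for Gpr115-KO (log2 fold change 0.69, SE 0.21, adjusted p = 0.255 by edgeR). The adaptor gene Grb2 had 0.52 (SE 0.19, adjusted p = 0.302 by edgeR). These were the 2 of 16 genes whose libraries did not overlap, beside 17.5% of all genes.

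Pthlh (chromosome 6, 147252101 to 147264183, minus strand) encodes PTHrP, which in the tooth germ is made mainly by epithelium and signals to the follicle and bone around it. Its level was 24.2, 24.4 and 17.4 CPM across WT and 26.2, 21.0 and 11.9 CPM across Gpr115-KO libraries. Gpr115-KO replicate 3 was lowest and replicate 1 highest of all 6 libraries. The log2 fold change was −0.16 (SE 0.27, adjusted p = 0.848 by edgeR), from 22.0 ± 3.97 to 19.7 ± 7.28 CPM (SD, n = 3). Without Gpr115-KO replicate 3 the sign turned, at 0.10 (adjusted p = 0.868 by edgeR), and it was −0.43 without replicate 1 (adjusted p = 0.515) and −0.09 without WT replicate 1 or 2 (adjusted p = 0.984 and 0.962).

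Pth1r (chromosome 9, 110722085 to 110747145, minus strand) encodes the receptor shared by PTHrP and parathyroid hormone. It stood at 6.78, 5.67 and 6.18 CPM across WT and 5.57, 7.67 and 10.4 CPM across Gpr115-KO libraries. Replicate 1 of Gpr115-KO was the lowest library, and replicates 2 and 3 were above all WT libraries. Means were 6.21 ± 0.558 and 7.88 ± 2.42 CPM (SD, n = 3), giving a log2 fold change of 0.35 (SE 0.27, adjusted p = 0.642 by edgeR). Without Gpr115-KO replicate 3 it was 0.09 (adjusted p = 0.913 by edgeR), and without replicate 1 it was 0.54 (adjusted p = 0.396). Pth1r shares 95 exonic bases, 3.25% of its exonic length, with Myl3 on the opposite strand, which had 7 counts in all.

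The proportion of ligand to receptor spanned a wider range in the Gpr115-KO libraries than in the WT libraries. Per kilobase, the ratio of Pthlh to Pth1r was 6.46, 7.77 and 5.09 across WT and 8.52, 4.94 and 2.06 across Gpr115-KO libraries. All 3 Gpr115-KO libraries lay outside the WT range, replicate 1 above it, replicate 2 just below and replicate 3 far below. This ratio was formed after the values were seen and has no test. In replicate 3, 5.60% of all genes were as far below the WT mean as Pthlh, and 4.22% as far above it as Pth1r. The 6 other dental epithelium markers, 5 of them tested, summed to 814 CPM there, against 1265 to 1375 CPM in WT and 1460 and 1735 CPM in the other Gpr115-KO libraries. The keratin genes Krt14 and Krt5 carried that sum, with 406 and 164 CPM there and 723 to 796 and 225 to 275 CPM in the WT libraries. Cdh1 (52.4 CPM) and Alpl (174 CPM) were also under their WT ranges, whereas Epcam (17.9 CPM) was highest there, and Sox2 was at 0 to 0.507 CPM throughout. Neither low value was particular to replicate 3. Cdh1 was under its WT range of 89.7 to 112 CPM in replicates 1 and 2 too (75.0 and 71.9 CPM). Its log2 fold change was −0.62 (SE 0.18, adjusted p = 0.245 by edgeR). Alpl was lower still in replicate 2 (150 CPM). The part of these markers in the Pthlh values was not tested.

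**Figure D3:**
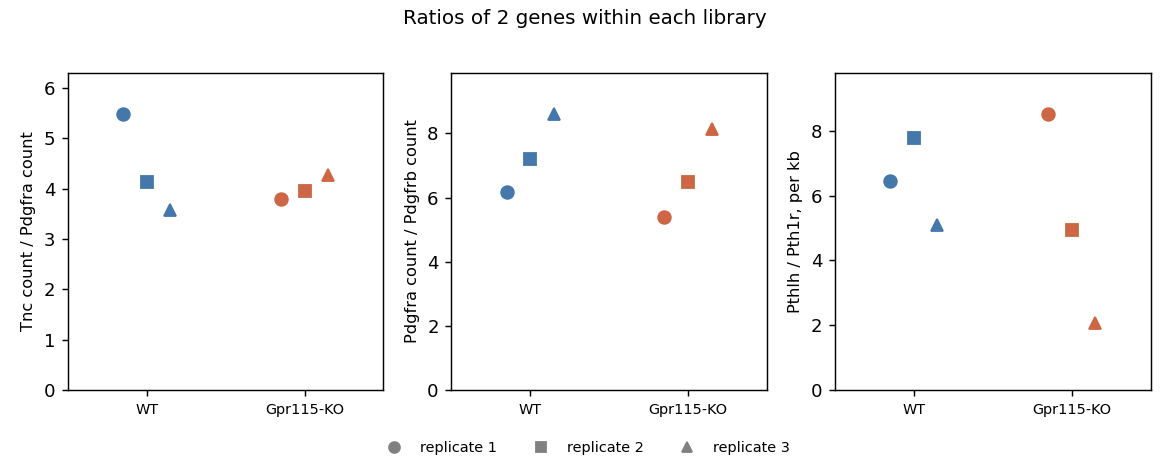
Ratios of 2 members within each library (vertical axes from 0) for WT (blue) and Gpr115-KO (orange), with symbols for replicate numbers: Tnc to Pdgfra counts, Pdgfra to Pdgfrb counts, and Pthlh to Pth1r per kilobase. In the first panel all Gpr115-KO libraries lie within the WT range, and in the last they run from 2.06 to 8.52.

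The PTHrP axis was followed in 38 listed genes with ligand and receptor, of which 34 were tested. edgeR called 0 (4 at an unadjusted p under 0.05), DESeq2 0 and limma-voom 0, with 15 above 0 and a median of −0.07. Pth, the gene of parathyroid hormone, had 0, 1 and 11 counts across WT and 0, 1 and 3 across Gpr115-KO libraries and was not tested. Gnaq, a G protein alpha subunit, stood at 539.7 ± 80.1 CPM for WT and 361 ± 63.1 CPM for Gpr115-KO (log2 fold change −0.58, SE 0.19, adjusted p = 0.288 by edgeR). Adcy3, an adenylyl cyclase, had 12.0 ± 0.277 and 8.07 ± 0.332 CPM (−0.57, SE 0.20, adjusted p = 0.299 by edgeR). Both were among 5 of the 34 tested genes whose libraries did not overlap, beside 17.5% of all genes.

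Osteoclast regulators of follicle and bone lie downstream of PTHrP. Tnfsf11, encoding the osteoclast inducer RANKL, had 1 to 7 counts per library and failed the filter. Tnfrsf11b, encoding its decoy osteoprotegerin, had 12.1, 18.5 and 13.9 CPM across WT and 12.8, 9.59 and 15.4 CPM across Gpr115-KO libraries (log2 fold change −0.23, SE 0.24, adjusted p = 0.745 by edgeR). Csf1, the macrophage growth factor gene, had −0.16 (SE 0.26, adjusted p = 0.844 by edgeR). The 3 tested osteoclast markers, of 5 listed, had a median of 0.61, and edgeR called 0 of them (1 at an unadjusted p under 0.05), as did DESeq2 and limma-voom.

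The surroundings of the scarce members were measured as well. Of 12 genes of thyroid hormone handling around Crym, 10 were tested, and edgeR called 0 (2 at an unadjusted p under 0.05), as did DESeq2 and limma-voom. Fitted values were above 0 for 5 and the median was 0.02. Thrb, a thyroid hormone receptor gene, stood at 102 ± 15.7 CPM for WT and 65.1 ± 20.9 CPM for Gpr115-KO (log2 fold change −0.65, SE 0.24, adjusted p = 0.309 by edgeR). Rxrb, its partner receptor gene, which lies on chromosome 17 like the targeted gene, had 0.60 (SE 0.26, adjusted p = 0.391 by edgeR).

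Of 16 stromal progenitor and mural cell genes with Thy1, 15 were tested. edgeR called 0 (2 at an unadjusted p under 0.05), limma-voom 0 and DESeq2 1, the gene Rgs5. Fitted values were above 0 for 7 and the median was −0.01. Rgs5 had 8053, 2781 and 5390 CPM across WT and 2753, 2022 and 2787 CPM across Gpr115-KO libraries, where replicate 3 was just above the lowest WT library (log2 fold change −1.10, SE 0.34, adjusted p = 0.268 by edgeR). The mural cell genes Mcam, Cspg4, Notch3, Acta2 and Tagln were far scarcer, at 3.52 to 33.9 CPM over all libraries. Which cells the Rgs5 reads came from was not tested. Alcam, encoding a cell adhesion molecule, had 19.5 ± 2.005 and 14.5 ± 0.147 CPM (−0.43, SE 0.18, adjusted p = 0.361 by edgeR).

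For each tested member the genes with the most similar profile over the 6 libraries were sought among 7949 named genes of at least 10 CPM. Likeness was the root mean square difference of log2 CPM after centring each gene on its own mean. For Tnc these were Pramef8 (0.07), Adam22 (0.10) and Adra2b (0.11), for Pdgfra Clasp1 (0.10), Zbtb44 (0.11) and Nup93 (0.13), and for Pdgfrb Ebf1 (0.08), Ncapg2 (0.09) and Usp53 (0.10). Ebf1, a transcription factor gene, had 22.4, 18.9 and 13.8 CPM across WT and 19.1, 8.10 and 16.0 CPM across Gpr115-KO libraries, lowest in replicate 2 as Pdgfrb was. For Twist1 they were Kdsr (0.04), Stab1 (0.05) and the homeobox gene Dlx6 (0.07), for Vim B9d2, Chpt1 and Ppp1r2 (0.05 each) and for Postn Pdlim2, Rpf2 and Cebpzos (0.09 each). The profile of Pthlh was closest to Mpped2 (0.05), Sgk1 and Eps8l2 (0.10 each), and that of Pth1r to Ptn, Cdkn1c (0.09 each) and Cirbp (0.11). Ptn, encoding the growth factor pleiotrophin, spanned 690 to 796 CPM across WT and had 615, 820 and 1217 CPM across Gpr115-KO libraries. Likeness over 6 libraries is a description only.

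**Figure D4:**
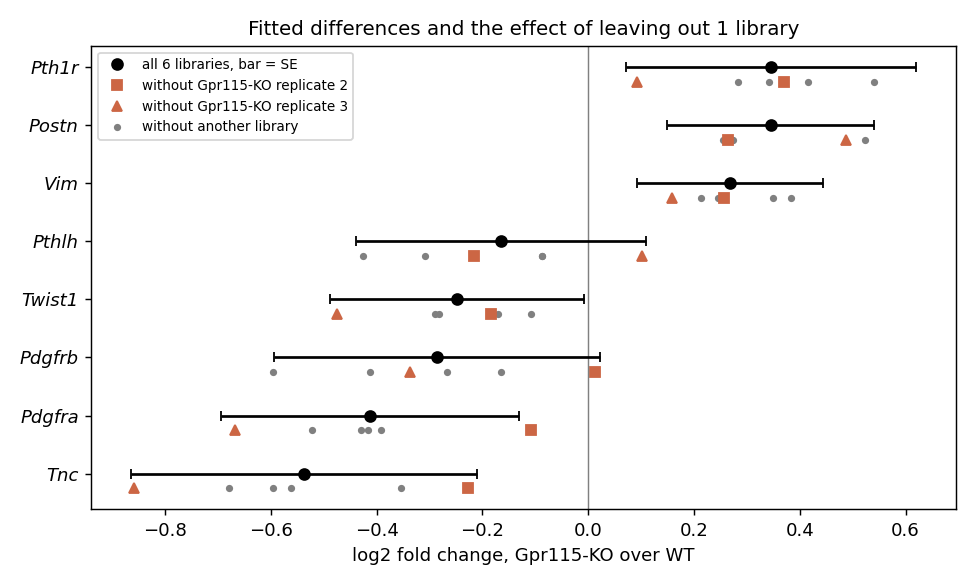
Fitted log2 fold changes of Gpr115-KO over WT (horizontal axis) for the 8 tested members, with SE bars for all 6 libraries (black) and, below each, the values with 1 library left out. Without Gpr115-KO replicate 2 (squares) Tnc, Pdgfra and Pdgfrb move to −0.23, −0.11 and 0.013, and without replicate 3 (triangles) Pthlh and Pth1r move to 0.10 and 0.09.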

How the data were processed

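The authors deposited raw counts per gene and a normalized signal, CPM scaled by TMM. Per the submitters' processing notes, STAR 2.5.2a, DESeq2, edgeR and limma were used with the build GRCm38 (mm10). No counting tool or annotation release is given in the sources used here. Per the labels' protocols, RNA was extracted with TRIzol and libraries made with a Nextera XT kit, which does not mark strand. Dividing the deposited signal by 1 factor per library returned whole reads in 100% of values (within 0.01 reads), and edgeR on those reads called 24 genes, as on the deposited counts. The factor was taken from the deposited counts and 100% of the reads equalled them, so these calls are no independent check. The 15 transgene rows, with 2 to 8 counts per library, were left out of totals and tests.

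For 48709 genes, counts went into edgeR 4.0.16 (R 4.3.3) after filterByExpr (minimum count 10, minimum total 15), with TMM scaling and genotype as the only term. The robust quasi-likelihood test was two-sided, p-values were adjusted by Benjamini-Hochberg over 16011 genes, and genes under 0.05 were called. SEs were taken as |log2 fold change| / √F. Limma 3.58.1 and DESeq2 1.42.0 served as alternatives. Depth limits single values through counting error, and a count of 0 was read as at most 3 counts.

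Symbols, positions and exonic lengths are from the deposited table and GENCODE vM21, on GRCm38. A blastn 2.17.0 search (95% identity, at least 150 nt) found matches to the members' transcripts only between Pdgfra and the overlapping Gm42802 and Gm42803. All 15 pairs of libraries differed by far more than sampling noise (chi-square per degree of freedom 14.4 to 77.5). The members and gene lists were chosen with earlier results of these data known. By rule, all 10 members were named, from each list its called genes or else the 2 non-members of smallest p, a fixed set of ligands and partners, and the 3 most similar genes per member.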

Additional observations from a re-analysis of the deposited data

How the results depend on the processing

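The 8 tested members were refitted under 18 alternatives each, 144 values in all, and 142 kept their sign and stayed above the threshold. The exceptions in sign were Pdgfrb without Gpr115-KO replicate 2 (0.013) and Pthlh without Gpr115-KO replicate 3 (0.10), whose ranges over the left-out libraries were −0.60 to 0.013 and −0.43 to 0.10. The count of members called was 0 under every alternative run, with the lowest adjusted p at 0.306, for Tnc without Gpr115-KO replicate 3. Thy1 and Crym failed the filter, so for them only the fit without a filter gave a value. Over all genes, 6 were called higher and 18 lower in Gpr115-KO. These counts were 60 and 177 with DESeq2, 135 and 365 without a count filter, and 18 and 54 with the replicate number as a block, and 11 were lower on library totals alone. Leaving out 1 library gave 5 to 10 higher and 7 to 39 lower genes, with 10 higher and 7 lower without WT replicate 2, 9 lower without WT replicate 1 and 39 lower without Gpr115-KO replicate 1. The fit on reads recovered from the normalized table was added after the data were seen and uses the same counts, so it is no independent alternative. Same-numbered libraries deviated together with correlations of 0.27, 0.03 and −0.07 across genes, so the numbers were not taken as pairs, and with the replicate block Tnc stood at −0.63, Pdgfra at −0.51 and Postn at 0.35. At these depths Thy1 and Crym could not be compared.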
